A study of Mus musculus with 8 samples.

Results

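Metallothioneins are small cysteine-rich proteins that hold zinc and copper, and zinc transporters set how much zinc a cell and its compartments contain. SLC39 (ZIP) proteins bring zinc into the cytosol from outside the cell or from organelles, and SLC30 (ZnT) proteins carry it out of the cytosol. The transcription factor Mtf1 senses zinc, binds short promoter elements called metal response elements and switches on Mt1, Mt2 and the exporter gene Slc30a1. In macrophages, zinc handling is known as a part of host defence, because withholding zinc from microbes, or loading it into the phagosome, limits their growth.

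The set described here holds 10 genes of the 18473 in the deposited expression table: the metallothioneins Mt1 and Mt2, the sensor Mtf1, the SLC30 genes Slc30a1 and Slc30a5, and the SLC39 genes Slc39a1, Slc39a6, Slc39a7, Slc39a10 and Slc39a14. They were taken by gene symbol, and all 10 were in the table. The list was chosen with the EXO and LPS values of these same libraries in view. The members' differences between the groups, and whether they were called, are therefore given as a description, without a p-value, and support nothing by themselves. The remaining metallothionein, SLC30 and SLC39 genes were read as a separate list, 12 of whose 19 genes were in the table; the other 7, Mt3, Mt4, Slc30a2, Slc30a8, Slc30a10, Slc39a5 and Slc39a8, are not analysed here.

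The study sequenced RNA from 8 mouse libraries, 4 titled EXO and 4 titled LPS, and its design text speaks of macrophages given ADSC-Exos and of their polarization. LPS commonly stands for lipopolysaccharide, a bacterial activator of macrophages, and ADSC-Exos for vesicles released by adipose-derived stem cells, but the labels spell out neither. The labels give both groups the same tissue (lung), cell line (MLE-12, which is an immortalized line of mouse lung epithelium) and cell type (epithelial cell), and name no genotype, age, dose, time or medium. Whether the EXO cells also received LPS is not stated, no untreated cells are analysed here, and nothing says whether replicates were separate cultures, so the spread between them may be technical.

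Recovered depth was 37014760 to 40591444 fragments per library. The labelled cell type did not match the marker genes. Of 12 macrophage markers, 11 averaged 1 FPKM or more, and all 12 together came to 5778 to 7346 FPKM in EXO and 10443 to 21701 in LPS. The general epithelial markers in the table were 2 of 13, Ocln and Elf3, and their summed level did not pass 0.0233 FPKM in any library; for alveolar type 2 cells 5 of 11 were in the table and summed to 45.1 to 55.7 in EXO and 67.7 to 104 in LPS, mostly Napsa. Fibroblast markers summed to at most 0.632, neutrophil markers to 4.06 to 7.29 in EXO and 5.48 to 11.6 in LPS, lymphocyte markers to 3.07 to 6.40 and 4.45 to 10.2, and alveolar macrophage markers to 4.82 to 8.28 and 9.42 to 15.4. Col1a1 and Cd3g were at 0 in every library, and Siglecf was at 0 in every LPS library. In bulk RNA, fewer cells of a type and less RNA per cell cannot be told apart, and the part of this difference in macrophage markers in the values below was not tested.

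Mt1 and Mt2 lie next to each other on chromosome 8 in the RefSeq annotation, and Mtf1 binds metal response elements in the promoters of its target genes. The RefSeq bases that precede the annotated start of Mt1, Mt2 and Slc30a1, the textbook Mtf1 targets among the members, are shown for that reason, 5′ to 3′ on the strand of the gene, in build GRCm38.p6. Capitals mark each copy of the core of the metal response element, TGCACNC or TGCGCNC, on either strand. All 3 genes lie on the plus strand, and each run holds the 250 bases before the start, at chr8:94178839-94179088 for Mt1, chr8:94172368-94172617 for Mt2 and chr1:191906531-191906780 for Slc30a1.
Mt1: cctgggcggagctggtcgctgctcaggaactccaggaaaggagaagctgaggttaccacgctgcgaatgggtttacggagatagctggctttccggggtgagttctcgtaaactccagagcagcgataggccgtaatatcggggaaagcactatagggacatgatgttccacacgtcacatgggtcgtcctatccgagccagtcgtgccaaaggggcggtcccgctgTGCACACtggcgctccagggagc
Mt2: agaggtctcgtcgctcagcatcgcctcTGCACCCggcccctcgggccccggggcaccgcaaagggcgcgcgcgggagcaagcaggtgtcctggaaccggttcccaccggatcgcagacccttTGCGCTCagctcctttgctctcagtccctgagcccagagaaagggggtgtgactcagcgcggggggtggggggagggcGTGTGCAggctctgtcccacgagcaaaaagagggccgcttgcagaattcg
Slc30a1: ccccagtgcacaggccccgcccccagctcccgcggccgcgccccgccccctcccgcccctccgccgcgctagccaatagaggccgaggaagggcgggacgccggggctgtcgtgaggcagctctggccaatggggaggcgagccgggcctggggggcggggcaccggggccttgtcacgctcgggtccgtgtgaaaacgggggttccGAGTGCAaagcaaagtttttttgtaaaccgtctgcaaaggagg

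In the wider window of 300 bases, which adds 50 bases after the start, the Mt2 window held 4 cores, at 3 places before the start and 1 after it. The Mt1 window held 3, of which 1 lay before the start (TGCACAC, bases -23 to -17). Its others lay after the start, at bases 2 to 8 and 20 to 26, and so are not in the printed run. The Slc30a1 window held 2, of which 1 lay before the start (bases -43 to -37, on the opposite strand). These counts depend on the RefSeq start. Where transcription starts in these cells was not tested, and bases past the window were not searched. Among 32544 RefSeq promoter windows of this length, 25.9% held at least 1 core, 7.17% at least 2, 1.99% at least 3 and 0.522% at least 4. RefSeq entries existed for 8 of the 10 members, with 9 windows. Slc30a5 held 1 core, and none was found in the windows of Mtf1, Slc39a1, Slc39a7 and Slc39a10. These matches describe letters in a window and no binding was measured.

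The members spanned about 2 orders of magnitude in FPKM, which scales fragments to gene length and library depth. The annotation behind the gene lengths is not named. The order of genes, the Mt1 to Mt2 ratios and the family shares given here therefore rest on lengths that were not checked. In EXO the order by mean FPKM was Mt1 (211), Mt2 (146), Slc39a1 (36.9), Slc39a7 (34.3), Slc30a5 (23.3), Slc39a6 (18.3), Slc39a14 (6.07), Slc39a10 (4.07), Mtf1 (2.72) and Slc30a1 (1.85). Ranges of neighbours overlapped for 4 of the 9 neighbouring pairs: Mt1 with Mt2, Slc39a1 with Slc39a7, Slc39a14 with Slc39a10, and Mtf1 with Slc30a1. In LPS the order was Mt1 (70.6), Slc39a1 (60.9), Slc39a7 (47.6), Mt2 (37.4), Slc30a5 (28.3), Slc39a6 (27.8), Slc39a10 (9.52), Slc39a14 (4.97), Mtf1 (2.76) and Slc30a1 (1.54). There 8 of 9 neighbouring pairs overlapped, and the only gap lay between Slc39a6 and Slc39a10. Among all genes of the table, Mt1 stood at place 374 by mean level in EXO and 992 in LPS, and Mt2 at 545 and 1746.

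**Figure D1:**
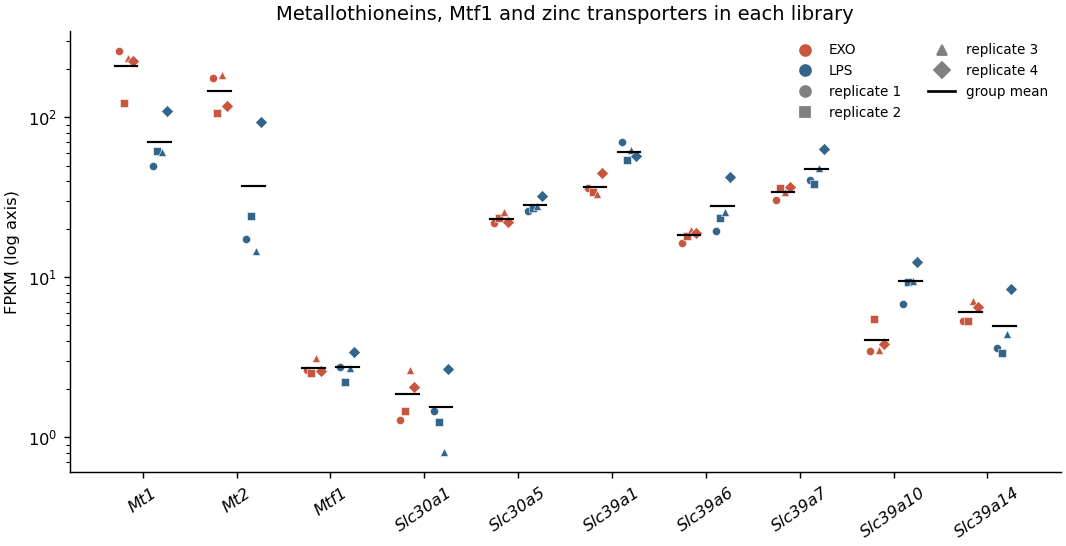
FPKM (log axis) of the 10 members in each of the 8 libraries, with EXO in red, LPS in blue, a marker shape per replicate number and a black line at the group mean. Mt1 and Mt2 lie higher in every EXO library than in any LPS library, Slc39a1, Slc39a7, Slc39a10 and Slc30a5 lie lower in every EXO library, and LPS replicate 4 is the highest LPS library for 9 of the 10 genes.

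All 10 members passed the filter of at least 1 FPKM in 4 libraries, and a value under 1 occurred once, for Slc30a1 in LPS replicate 3. In the limma fit over 9812 genes on log2(FPKM + 1), 2 members were called higher in EXO at an adjusted p under 0.05 and 4 were called lower, where 33.7% of all tested genes were called higher, 24.7% lower and 58.4% in either direction. The groups did not overlap in 6 members, against 51.2% of all tested genes. The median log2 difference was -0.14 over the members and 0.085 over all tested genes. Because the list was chosen on this same contrast, nothing is read from these shares.

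The metallothioneins were the members with the largest differences in this fit, and both were higher in EXO. Mt1 stood at 259, 123, 235 and 226 FPKM in EXO replicates 1 to 4 and at 49.7, 61.4, 61.0 and 110 in LPS replicates 1 to 4. All EXO libraries lay above all LPS libraries, with EXO replicate 2 the lowest of its group and LPS replicate 4 close beneath it. The means were 211 ± 60.2 and 70.6 ± 27.0 (SD, n = 4 in each group), a ratio of 2.99, and the log2 difference was 1.58 (SE 0.29, 95% confidence interval 0.94 to 2.22).

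Mt2 stood at 177, 106, 183 and 117 FPKM in EXO and at 17.4, 24.2, 14.6 and 93.3 in LPS. Here too no LPS library reached an EXO library, but LPS replicate 4 came near the lowest EXO library while the other LPS libraries were far beneath. The means were 146 ± 39.6 and 37.4 ± 37.5, a ratio of 3.90, and the log2 difference was 2.31 (SE 0.55, 95% confidence interval 1.05 to 3.57). Without LPS replicate 4 the ratio of means became 7.77 and the log2 difference 2.88 (95% confidence interval 2.35 to 3.42), against 3.67 and 1.81 for Mt1. That fit drops the highest LPS value of both genes, so a larger difference follows from the choice and nothing is read from it. Between 331 and 3766 fragments per library stood behind Mt2 and 2545 to 12261 behind Mt1. The genes are paralogs of similar sequence, and the labels do not say how fragments that match both were assigned.

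The balance between the metallothioneins differed between libraries. Mt1 exceeded Mt2 in every library, by 1.46, 1.16, 1.29 and 1.93 times in EXO replicates 1 to 4 and by 2.86, 2.54, 4.17 and 1.18 times in LPS replicates 1 to 4. LPS replicate 4 lay within the EXO range for this ratio and the other LPS libraries above it. Added together, both genes came to 229 to 436 FPKM in EXO and 67.1 to 204 in LPS.

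**Figure D2:**
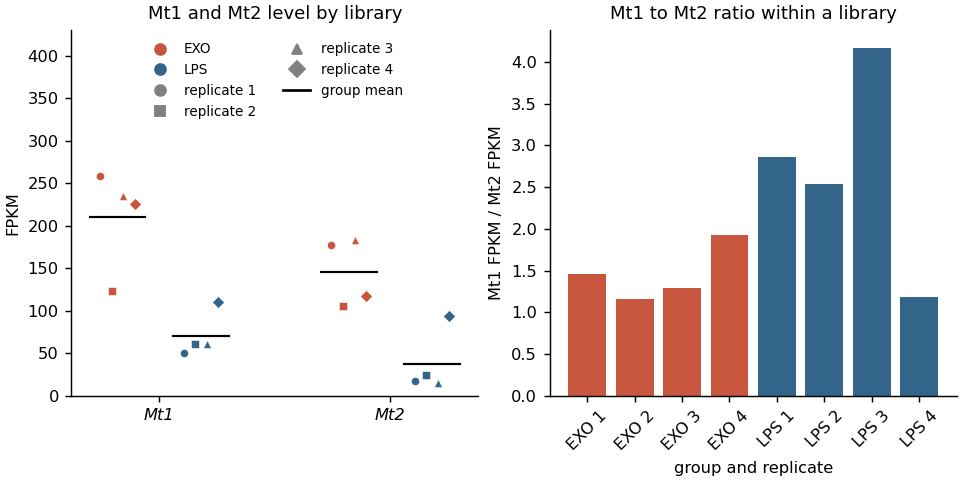
Left, FPKM of Mt1 and Mt2 in each library, with EXO in red, LPS in blue and a black line at the group mean; right, bars of the Mt1 to Mt2 FPKM ratio in each library, starting at 0. The ratio is 1.16 to 1.93 in EXO libraries, 2.54 to 4.17 in LPS replicates 1 to 3 and 1.18 in LPS replicate 4.

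Mtf1, the zinc sensor that drives metallothionein transcription, did not differ detectably. It stood at 2.62, 2.53, 3.13 and 2.60 FPKM in EXO and at 2.73, 2.22, 2.69 and 3.40 in LPS. The groups overlapped throughout, with EXO replicate 3 and LPS replicate 4 the highest of their groups. The means were 2.72 ± 0.275 and 2.76 ± 0.488, and the log2 difference of -0.01 (95% confidence interval -0.26 to 0.24) changed sign when LPS replicate 4 was left out (0.069).

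Slc30a1 (ZnT1), which exports zinc across the plasma membrane and is an Mtf1 target in mouse, was the member with the lowest level. It stood at 1.28, 1.45, 2.62 and 2.05 FPKM in EXO and at 1.46, 1.25, 0.803 and 2.66 in LPS, on 175 to 566 fragments. The groups overlapped, and the highest single value was that of LPS replicate 4. The log2 difference was 0.19 (95% confidence interval -0.25 to 0.63) and was not called. Without LPS replicate 4 it was 0.38 (95% confidence interval 0.043 to 0.72) and was called higher in EXO. That fit drops the library with the highest value, so nothing is read from the call.

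Slc30a5 (ZnT5) loads zinc into the early secretory pathway as a partner of Slc30a6. It stood at 21.7, 23.5, 25.7 and 22.3 FPKM in EXO and at 25.8, 27.2, 27.8 and 32.4 in LPS. The ranges did not overlap, though the highest EXO library and the lowest LPS library nearly touched. The means were 23.3 ± 1.75 and 28.3 ± 2.88, and the log2 difference of -0.27 (95% confidence interval -0.51 to -0.026) was not called after adjustment over all genes. It was called lower without EXO replicate 3 or LPS replicate 1, and under median-of-ratios rescaling.

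Among the importers, Slc39a1 (ZIP1), found at the plasma membrane, had the highest mean FPKM in both groups, though Slc39a7 exceeded it in EXO replicates 2 and 3 and in LPS replicate 4. It stood at 36.0, 34.0, 33.2 and 44.6 FPKM in EXO and at 70.2, 53.9, 62.4 and 57.1 in LPS. The groups were apart, and this was the member in which LPS replicate 4 was not the highest LPS library. The means were 36.9 ± 5.20 and 60.9 ± 7.13, and the log2 difference of -0.71 (95% confidence interval -0.98 to -0.44) was called lower in EXO.

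Slc39a10 (ZIP10), a plasma membrane importer that Mtf1 is reported to repress in mouse, had the lowest log2 difference of the members. It stood at 3.45, 5.5, 3.49 and 3.83 FPKM in EXO and at 6.76, 9.32, 9.53 and 12.5 in LPS. The groups did not overlap, with EXO replicate 2 the highest EXO library and LPS replicate 1 the lowest LPS library. The means were 4.07 ± 0.971 and 9.52 ± 2.34, 2.34 times higher in LPS, and the log2 difference was -1.04 (95% confidence interval -1.40 to -0.69).

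Slc39a6 (ZIP6, LIV-1) can form a complex with Slc39a10. It stood at 16.3, 18.2, 19.8 and 18.8 FPKM in EXO and at 19.6, 23.5, 25.7 and 42.4 in LPS. The ranges touched, because LPS replicate 1 lay slightly under EXO replicate 3, and LPS replicate 4 was far above the rest. The log2 difference was -0.53 (95% confidence interval -0.93 to -0.12), called lower, and -0.31 (-0.56 to -0.052) without LPS replicate 4. The call was lost without EXO replicate 1 or EXO replicate 2, and with no filter on low values.

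Slc39a7 (ZIP7) releases zinc from the endoplasmic reticulum and Golgi into the cytosol. It stood at 30.3, 36.2, 34.1 and 36.6 FPKM in EXO and at 40.5, 38.6, 48.3 and 63.1 in LPS. All LPS libraries lay above all EXO libraries, by a narrow margin for LPS replicate 2. The log2 difference was -0.44 (95% confidence interval -0.75 to -0.13), called lower, and the call was lost without EXO replicate 1 and with no filter on low values.

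Slc39a14 (ZIP14) imports zinc and also carries iron and manganese, and in mouse liver it is induced by interleukin 6. It stood at 5.33, 5.31, 7.11 and 6.54 FPKM in EXO and at 3.63, 3.36, 4.39 and 8.51 in LPS. LPS replicates 1 to 3 were below every EXO library, and LPS replicate 4 was above every one. The log2 difference over all libraries was 0.31 (95% confidence interval -0.15 to 0.77) and was not called. Without LPS replicate 4 it was 0.56 (95% confidence interval 0.29 to 0.83) and was called higher in EXO. That fit drops the library that lay above every EXO library, so nothing is read from the call.

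**Figure D3:**
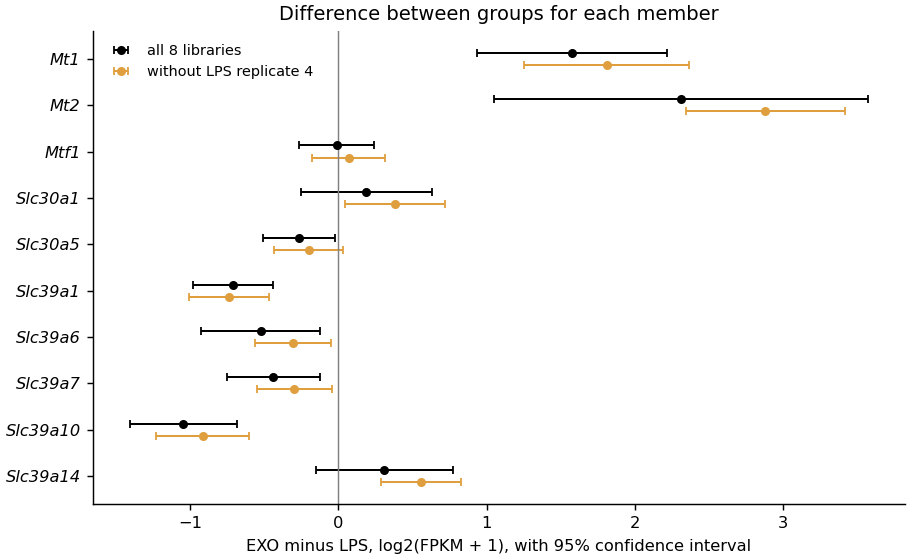
EXO minus LPS difference of each member on the log2(FPKM + 1) scale, as points with 95% confidence intervals from the limma fit, over all 8 libraries in black and without LPS replicate 4 in orange. Mt1 and Mt2 lie to the right of 0, and the SLC39 genes other than Slc39a14 lie to its left. The interval of Mt2 is 1.05 to 3.57 over all libraries and 2.35 to 3.42 without LPS replicate 4. The smaller fit drops the highest LPS value of Mt2, so nothing is read from the narrowing.

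LPS replicate 4 stood above the other LPS libraries in most members. It was the highest LPS library in 9 of the 10 members, against 49.8% of all tested genes. Over all tested genes, the median of its level over the mean of the other LPS libraries was 1.11. LPS replicate 4 was also the highest LPS library in 8 of the 9 tested other family genes, so this was not particular to the members. Its level over the mean of LPS replicates 1 to 3 was 4.98 times for Mt2, 2.27 for Slc30a1, 2.24 for Slc39a14, 1.92 for Mt1 and 1.85 for Slc39a6, and 1.2 to 1.49 for Slc39a7, Slc39a10, Mtf1 and Slc30a5. Slc39a1 was at 0.918. After median-of-ratios rescaling, which puts that median at 1.02, the ratios for Mt2, Slc30a1, Slc39a14, Mt1 and Slc39a6 were 4.55, 2.08, 2.07, 1.77 and 1.70. The same library had the lowest summed macrophage markers of its group, at 10443 FPKM beside 14312 to 21701, a sum that is mostly Lyz2, the macrophage lysozyme. Without Lyz2 the sum was 4584 beside 5732 to 6766. Single markers did not all follow it: Fcgr1 was highest in this library, at 83.7 FPKM beside 60.5 to 77.7, and Adgre1, Ptprc and Itgam were second highest there. The part of these markers in the members' values was not tested. In EXO, replicate 3 was the highest library for 6 members, against 32.5% of tested genes.

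**Figure D4:**
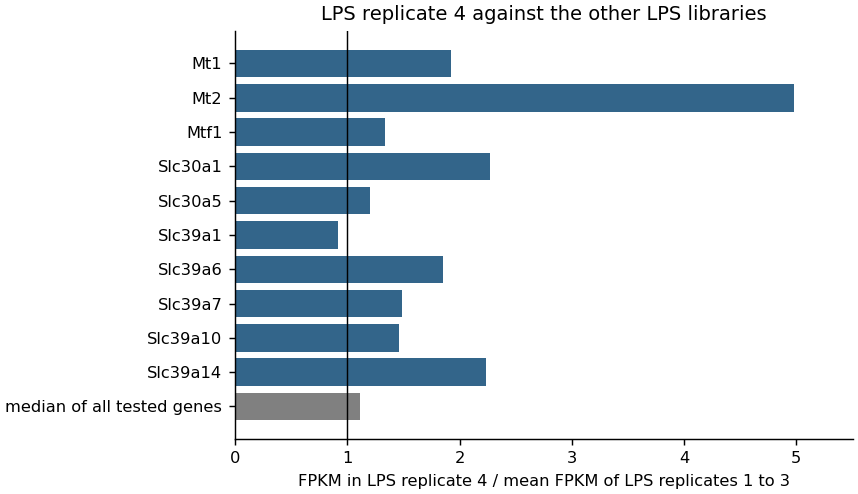
Bars, starting at 0, of the FPKM in LPS replicate 4 divided by the mean FPKM of LPS replicates 1 to 3, for each member and, in grey, the median over all tested genes; the line marks 1. Mt2 reaches 4.98, 8 other members lie between 1.2 and 2.27, Slc39a1 lies at 0.918 and the median at 1.11.

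Here and below, rose and fell mean higher and lower in EXO than in LPS, and no starting state was measured. Of 12 further family genes in the table, 9 passed the filter, and 3 of them fell, none rose and 6 missed the threshold in limma. The median log2 difference was -0.18. Over all tested genes 24.7% were called lower and 33.7% higher, so the 3 of 9 that fell lie near that background and are no result about the family. At an unadjusted p under 0.05, 4 fell and none rose, and by voom on recovered fragments 3 fell and none rose. Slc39a13 (ZIP13), which releases zinc from vesicles and the Golgi, fell to 4.35, 5.84, 4.91 and 3.73 FPKM in EXO from 10.6, 9.84, 9.46 and 9.54 in LPS (log2 difference -0.94, SE 0.12, limma adjusted p = 2.13e-05). The LPS libraries were close to each other here and all above the EXO libraries, LPS replicate 4 included.

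Slc30a7 (ZnT7), an early secretory pathway transporter, fell to 3.43, 3.34, 3.22 and 2.55 FPKM from 4.47, 5.12, 5.54 and 5.70 (log2 difference -0.59, limma adjusted p = 0.000612). Slc30a9 (ZnT9), a mitochondrial zinc exporter, fell from 15.5 ± 1.17 in LPS to 12.5 ± 1.34 in EXO (log2 difference -0.30, limma adjusted p = 0.0356). The call of Slc30a9 was lost, with a limma adjusted p of 0.056 to 0.101, when EXO replicate 1 or 4 or LPS replicate 1, 3 or 4 was left out, and in a fit with the replicate number as a block.

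The genes that were not called overlapped between the groups. Slc30a6, the partner of Slc30a5, averaged 9.90 ± 0.691 in EXO and 11.4 ± 1.40 in LPS, and Slc30a4, known for loading zinc into milk in mouse, 10.8 ± 1.68 and 10.1 ± 1.03. Slc39a9 averaged 8.50 ± 1.32 and 9.21 ± 1.60, and Slc39a11 6.99 ± 0.840 and 8.73 ± 1.33 (limma adjusted p = 0.0687). Slc39a3, a plasma membrane importer, averaged 2.95 ± 0.409 and 2.65 ± 0.340, and Slc39a4, the intestinal zinc importer, 4.26 ± 1.06 and 4.22 ± 0.637. The remaining family genes were too low to test. Slc39a2 averaged 0.0651 ± 0.0806 and 0.276 ± 0.0872, Slc30a3, the synaptic vesicle transporter, reached at most 0.0877 in any library, and Slc39a12 was detected by 1 fragment in LPS replicate 3.

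The family sums, which include the members, are given as a description without a test. The summed FPKM of the 12 SLC39 genes in the table was 115, 131, 125 and 137 in EXO and 174, 161, 184 and 224 in LPS, without overlap. That of the 7 SLC30 genes was 57.8, 62.9, 68.5 and 56.9 in EXO and 67.0, 69.1, 70.4 and 81.7 in LPS, and these ranges overlapped in 1 library of each group. Slc39a1 and Slc39a7 held 25.5% to 40.3% and 23.2% to 28.2% of the SLC39 sum, the highest shares of Slc39a1 being in LPS replicates 1 to 3.

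**Figure D5:**
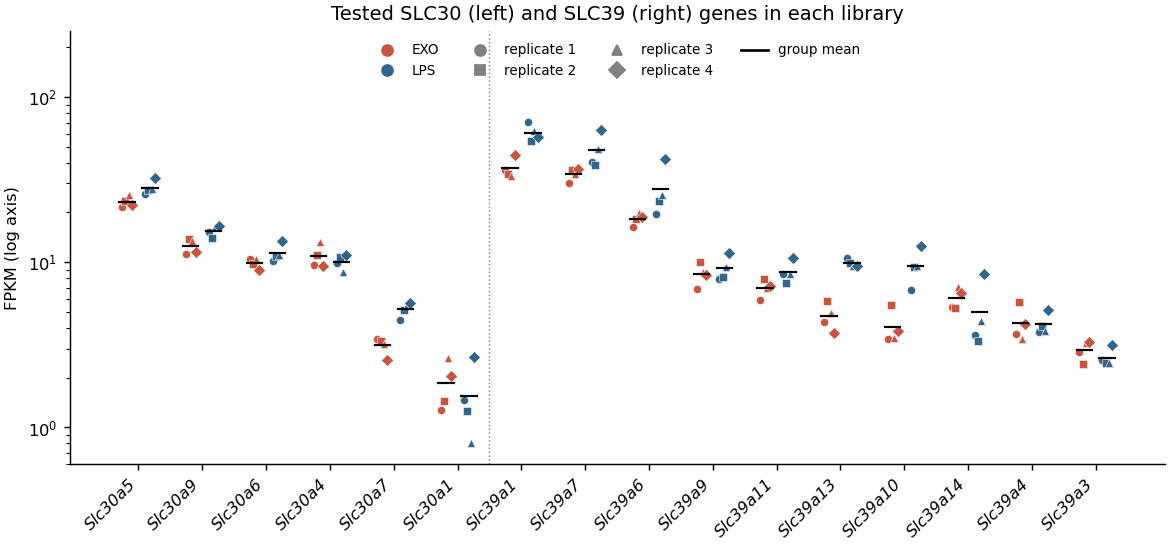
FPKM (log axis) of the 16 tested transporter genes in each library, SLC30 genes left of the dotted line and SLC39 genes right of it, each family ordered by mean level, with EXO in red, LPS in blue and a black line at the group mean. Slc39a1, Slc39a7, Slc39a10, Slc39a13, Slc30a5, Slc30a7 and Slc30a9 show groups that do not overlap, all lower in EXO. The groups did not overlap in 51.2% of all tested genes either. Slc39a1, Slc39a7, Slc39a10 and Slc30a5 are members, chosen with these values in view, so no family pattern is read from this.

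Of 5 tested genes reported elsewhere as Mtf1 targets, 1 rose, 1 fell and 3 missed the threshold; the median log2 difference was 0.076. The 2 calls among 5 stand beside 58.4% called over all tested genes, and nothing is read from the list as a whole. Selenoh, a nuclear selenoprotein, stood at 316, 249, 307 and 288 FPKM in EXO and at 25.2, 27.7, 33.9 and 55.1 in LPS (log2 difference 3.06, limma adjusted p = 2.30e-07). LPS replicate 4 was the highest LPS library for Selenoh. The same held for 4 of the 5 tested genes of this list and for 49.8% of all tested genes. Slc40a1, the iron exporter ferroportin, fell to 1.69 ± 0.280 in EXO from 5.35 ± 1.86 in LPS (log2 difference -1.19, limma adjusted p = 1.12e-04). Csrp1 averaged 40.1 ± 4.55 and 33.6 ± 3.34 and Ndrg1 27.9 ± 13.4 and 36.8 ± 9.27. They were not called over all libraries, but Csrp1 was called higher without EXO replicate 2 (limma adjusted p = 0.0392) and Ndrg1 lower without EXO replicate 4 (limma adjusted p = 0.0285). Gclc was not called, and Pgf did not pass the filter.

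Copper is the other metal that metallothioneins bind. Of 12 tested genes of copper handling, 4 rose, 4 fell and 4 missed the threshold; their median difference was 0.16. These counts are close to the shares over all tested genes, 33.7% higher and 24.7% lower. Ccs, which delivers copper to superoxide dismutase, rose from 18.7 ± 0.903 in LPS to 32.6 ± 3.19 in EXO (limma adjusted p = 4.30e-05), and Sod1, the copper and zinc superoxide dismutase itself, from 506 ± 42.8 to 751 ± 50.9 (limma adjusted p = 5.11e-04). Slc31a2 (CTR2), a vesicular copper transporter, fell from 55.4 ± 7.68 to 28.4 ± 2.97 (limma adjusted p = 2.69e-05), and Atp7a, the copper export ATPase, from 7.78 ± 1.53 to 4.46 ± 0.768 (limma adjusted p = 8.12e-04). These 4 genes have the smallest p of the list, and their groups did not overlap. That was so for 6 of the 12 tested copper genes and for 51.2% of all tested genes.

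Of 9 tested genes in a list of S100, cation channel and Tmc genes, 1 rose, 3 fell and 5 missed the threshold. Their median difference was -0.17, where 58.4% of all tested genes were called in either direction. Mcoln1, a lysosomal cation channel, averaged 8.65 ± 1.31 in EXO and 15.4 ± 1.54 in LPS (limma adjusted p = 1.21e-04), and Tmc6 1.92 ± 0.308 and 2.92 ± 0.326 (limma adjusted p = 0.00488). S100a1 averaged 69.4 ± 7.54 and 145 ± 47.2 and fell (limma adjusted p = 0.00318), with LPS replicate 4 at 77.2 inside the EXO range, and S100a10 rose from 466 ± 34.5 to 598 ± 97.7 (limma adjusted p = 0.0286). The S100a10 ranges overlapped, with 502 the lowest EXO value and 505 the highest LPS value. Its call was lost, with a limma adjusted p of 0.0518 to 0.123, without EXO replicate 1 or 3, without LPS replicate 2 or 3, with no filter on low values and under median-of-ratios rescaling.

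Metallothioneins are also textbook targets of glucocorticoids, and 7 other genes of that kind were tested, of which 4 rose, 1 fell and 2 missed the threshold; their median difference was 0.42. Over all tested genes 33.7% were called higher and 58.4% in either direction. The 4 that rose became 3 under median-of-ratios rescaling and with no filter. They also became 3 when EXO replicate 1, 2 or 4 or LPS replicate 1, 2 or 3 was left out. At a mean FPKM of at least 5 only 5 genes of the list were tested, of which 3 rose. Fkbp5, a co-chaperone of the glucocorticoid receptor, stood at 23.3, 22.0, 30.1 and 24.1 FPKM in EXO and at 10.8, 7.62, 10.5 and 12.9 in LPS (limma adjusted p = 1.26e-05). Klf9 rose from 4.08 ± 0.931 to 7.45 ± 0.970 (limma adjusted p = 3.90e-04) and Per1 from 1.71 ± 0.164 to 2.71 ± 0.442 (limma adjusted p = 0.00332). Sgk1 fell from 7.27 ± 2.02 to 3.71 ± 0.370 (limma adjusted p = 7.00e-04), and Tsc22d3 (GILZ) averaged 4.25 ± 1.39 and 4.35 ± 1.13 without being called.

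The genes with profiles most like those of the metallothioneins were found by the root mean square difference of centred log2(FPKM + 1) values over the 8 libraries. For Mt1 they were Polr2h, a subunit shared by RNA polymerases (0.20), Gar1, a box H/ACA ribonucleoprotein (0.22), and Cmss1 (0.23). Polr2h stood at 82.8, 45, 64.2 and 67.1 FPKM in EXO and at 19.8, 19.9, 21.9 and 29.3 in LPS, with the same library lowest in EXO and highest in LPS as for Mt1. For Mt2 they were Dnph1 (0.53), Cdc20, an activator of the anaphase-promoting complex (0.54), and Odc1, ornithine decarboxylase (0.55). The difference between Mt1 and Mt2 was 0.61, which placed Mt1 at 8 among the genes nearest to Mt2 and Mt2 at 1588 among those nearest to Mt1.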

How the data were processed

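RNA was sequenced from 8 mouse libraries, 4 titled EXO and 4 titled LPS, and groups and replicate numbers were taken from the sample titles. HISAT2 and mouse build GRCm39 (mm39) were used, per the submitters' processing notes; the labels and header name no counting tool, strand setting or annotation. The authors deposited 1 table of FPKM values (fragments scaled to gene length and library depth) for 18473 genes. Its header names no unit, and FPKM was inferred from the values, which step by whole multiples of a unit set by gene and library. Those steps gave whole fragment counts for all 17645 detected genes (within 0.01 of a whole number), used for depth and for an alternative test.

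The test set for FPKM was used: limma 3.58.1 (R 4.3.3) on log2(FPKM + 1) for genes with at least 1 FPKM in at least 4 libraries (9812 genes), variances moderated robustly along the mean, two-sided, Benjamini-Hochberg adjustment over all tested genes, threshold 0.05. Differences are EXO minus LPS, and this scale understates changes of low genes. The fit was checked on made-up counts. The members, lists and alternatives were chosen with earlier results of these data known. Named genes are all family genes in the table, up to 4 genes with the smallest p of each other list, and the 3 profiles nearest to Mt1 and to Mt2; Gclc, Pgf and Tsc22d3 were named after their values were seen. Deviations from the group means correlated by 0.05, 0.17, -0.29 and -0.11 in same-numbered libraries and by -0.16 to 0.35 in differently numbered ones. These values cannot show whether libraries were paired, and the labels name no pairing, so the main fit has no replicate block. Promoter sequences are from RefSeq, whose build (GRCm38.p6) differs from the authors', so they are not joined to coordinates of the table, which has none. Protein sequences are not used here. Alternatives were a pseudocount of 0.1, median-of-ratios rescaling, no filter, a floor of 5 on the mean FPKM, voom on recovered fragments, a replicate block, and leaving out libraries.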

Additional observations from a re-analysis of the deposited data

Results flagged for a closer look

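Among 38 groups of 4 libraries looked at (19 tested family genes in EXO and in LPS), 3 held a library set apart from the other 3, meaning that its gap to the nearest exceeded Dixon's 95% critical share of the group's range; chance gives this in about 1 of 20 groups. Mt2 stood at 93.3 FPKM in LPS replicate 4, with a gap of 0.878 of the range, the next LPS library being at 24.2. Slc39a3 stood at 3.15 FPKM in LPS replicate 4 (gap 0.855), the other LPS libraries lying between 2.45 and 2.55. Mtf1 stood at 3.13 FPKM in EXO replicate 3 (gap 0.840), the other EXO libraries lying between 2.53 and 2.62. Their source was not tested.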

How the results depend on the processing

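The member calls numbered 6 with all libraries and 4 to 8 when any single library was left out, and the calls over all genes numbered 5732 and 5108 to 6106. The other family genes gave 3 calls, 2 to 4 with a library left out and 5 under median-of-ratios rescaling. The Mtf1 target list gave 2 calls, 2 to 3 with a library left out and 1 at a mean FPKM of at least 5, where fewer genes were tested. Copper, S100 and channel, and glucocorticoid lists gave 8 to 9, 3 to 6 and 4 to 6 calls with a library left out. Without EXO replicate 2 and LPS replicate 4 together the members gave 8 calls.

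Of 148 refits of single members, 131 kept direction and side of the threshold, 5 lost a call, 7 gained one and 5 changed sign. The sign changes were all of Mtf1: 0.094 without EXO replicate 2 and LPS replicate 4, and, within a range of -0.082 to 0.069 over single libraries left out, 0.0016, 0.015 and 0.0043 without EXO replicate 1, 2 or 4 and 0.069 without LPS replicate 4. Among the other family genes, which are outside that count, Slc39a4 changed sign without EXO replicate 1 (0.051), EXO replicate 3 (0.078) or LPS replicate 4 (0.081). Its range was -0.13 to 0.081. Slc30a5 was called lower under rescaling (-0.34). With the replicate block, members gave 6 calls, all genes 5592 and other family genes 2, Slc30a9 being lost; the numbers share no known animal or batch. Alternatives that drop low genes gave no value for Mtf1 and Slc30a1.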
